A study of Caenorhabditis elegans with 14 samples.

Results

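The genes of Caenorhabditis elegans that report, or respond to, the number of X chromosomes relative to autosomes were followed here: the X signal elements sex-1, fox-1 and ceh-39, the autosomal signal elements sea-1 and sea-2, both on chromosome II, and their common target xol-1, also on the X. They were chosen by name, as the known elements of this counting system, and all 6 (sex-1 WBGene00004786, fox-1 WBGene00001484, ceh-39 WBGene00000460, sea-1 WBGene00004750, sea-2 WBGene00004751 and xol-1 WBGene00006962) were found among the 20376 genes of the deposited table. RNA of whole worms was sequenced in 2 strains in which sex and X number are uncoupled, and levels are given as FPKM (fragments mapped to a transcript, scaled by its length and by the size of the library). The groups were XO hermaphrodite young adults of strain TY2205 (n = 3), XX male young adults of strain CB5362 (n = 4), XO hermaphrodite L3 larvae of TY2205 (n = 3) and XX male L3 larvae of CB5362 (n = 3). Young adults had grown for 44 hours at 25 °C, and L3 larvae for 24 hours with no temperature given. The labels name no alleles. As background, TY2205 is known to carry her-1(e1520), sdc-3(y126) and xol-1(y9), and CB5362 is known to carry tra-2(ar221), a temperature-sensitive allele, and xol-1(y9), so the xol-1 mutation is shared by all 4 groups. XO hermaphrodites have 1 X chromosome and XX males have 2, the reverse of the normal relation of sex and X number, and sex, X number and strain differ together in each comparison of animals.

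In normal embryos the product of each X signal element lowers xol-1 activity, so that XX embryos, with a double dose of these genes, keep xol-1 low and become hermaphrodites with dosage compensation. The products of the autosomal signal elements raise xol-1 activity, and in XO embryos xol-1 stays on and directs male development. The decision is made in early embryos, so the larvae and adults studied here are themselves past it. RNA came from whole worms, however. Early embryo genes summed to 9.89 to 20.2 FPKM in XO hermaphrodite and 0.493 to 0.912 FPKM in XX male young adults. The part of embryos in the adult libraries was not tested.

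The table held a value for every library in 14 columns, of which 13 belong to the 4 groups and 1 is an adult TY2205 library that the submitters mark as a reverted mutant, shown apart only. Depth is not recorded. Read from the steps between low values, and relative to replicate 1 of the XX male young adults, it was 0.224 to 0.92 for larval and 0.62 to 1.459 for adult libraries, so low values are less precise in most larvae. XO hermaphrodite L3 replicate 1 stood apart from its group: its Spearman correlations over genes were 0.907 and 0.917 with the other XO L3 libraries, 0.863 with XX male L3 replicate 1, and 0.943 and 0.927 with XX male L3 replicates 2 and 3. Results that rest on it are given with and without it. Whether replicates came from separate cultures is not stated, so p-values measure only the spread between these libraries. The markers unc-54 of body muscle, ges-1 of the intestine and unc-13 of neurons were above 0 in each group.

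xol-1, which encodes the switch protein on which the signals converge, was listed at 0 FPKM in all 3 XO hermaphrodite and all 4 XX male young adult libraries and in all 3 XO hermaphrodite and all 3 XX male L3 libraries. No library of the 4 groups therefore had a xol-1 value above 0, and the gene was not tested. The reverted library had 0.672 FPKM. The same library also differed at another mutated gene of the strain: sdc-3, which encodes a zinc finger protein that recruits the dosage compensation complex to the X, had 17.7 FPKM there, against 0.251 ± 0.0143 FPKM in XO hermaphrodite young adults (SD, n = 3) and 1.52 ± 0.211 FPKM in XX male young adults (SD, n = 4). At L3 sdc-3 averaged 0.327 ± 0.0792 FPKM in XO hermaphrodites and 4.56 ± 0.690 FPKM in XX males (SD, n = 3 each). her-1, the secreted male-promoting signal, averaged 27.9 ± 14.1 FPKM in XO hermaphrodite and 0.642 ± 0.167 FPKM in XX male young adults, and 20.7 ± 16.6 FPKM in XO hermaphrodite and 1.23 ± 0.415 FPKM in XX male L3 larvae (SD). tra-2, which encodes the receptor of HER-1, averaged 36.6 ± 2.61 FPKM in XO hermaphrodite and 18.1 ± 1.13 FPKM in XX male young adults, so reads were still assigned to the mutated her-1 and tra-2 genes.

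**Figure D1:**
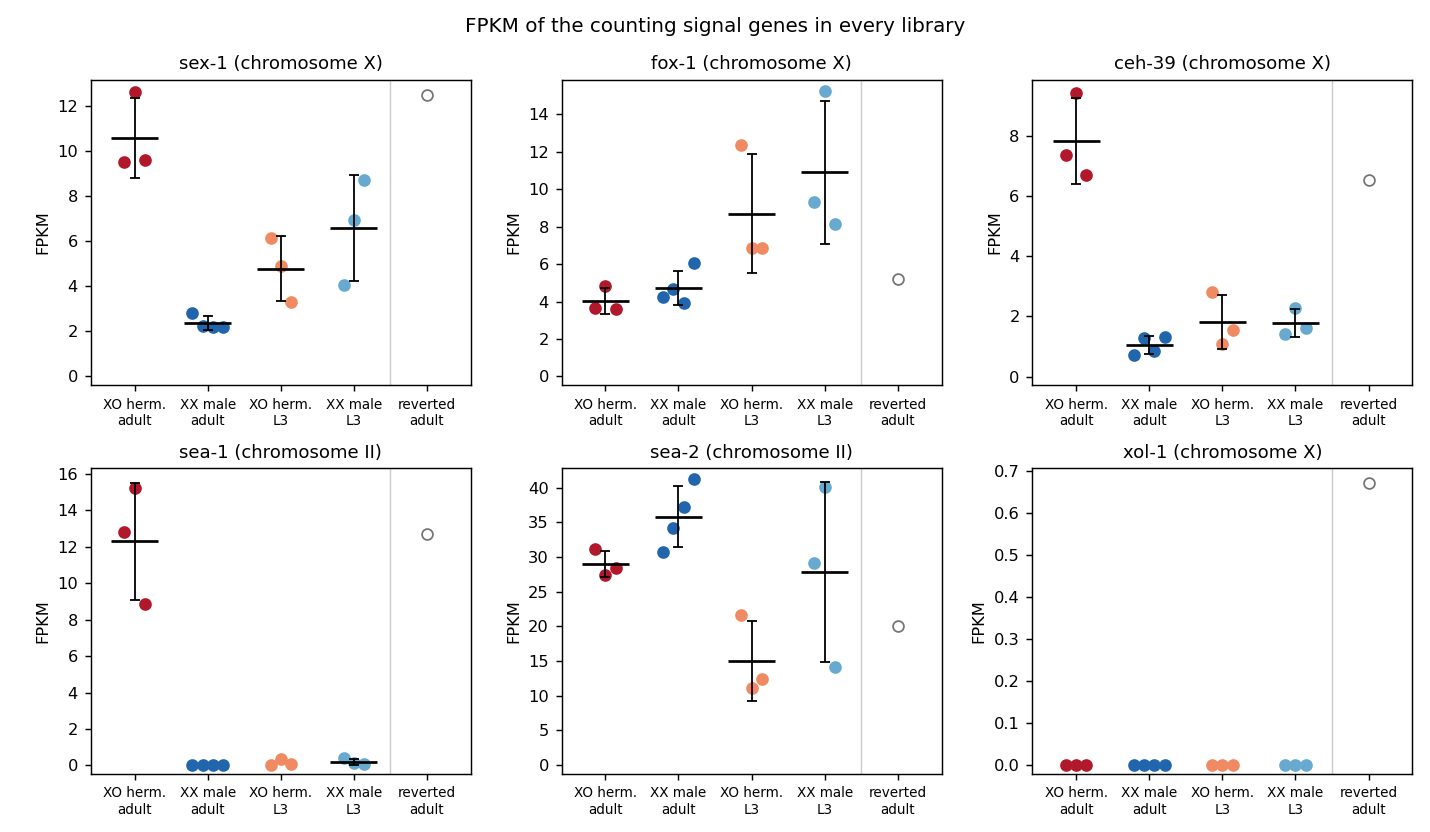
FPKM of the 6 counting signal genes (y axis, linear, a scale of its own in each panel) in each library of the 4 groups (filled points) and in the reverted adult library (open point); bars are group means and whiskers SD, drawn where no library of the group is at 0. sex-1, ceh-39 and sea-1 were high in the 3 XO hermaphrodite young adult libraries, fox-1 was higher at L3 than in young adults, and xol-1 was at 0 in all 13 libraries of the groups.

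In young adults 3 of the 5 tested genes, sex-1, ceh-39 and sea-1, were called higher in XO hermaphrodites relative to XX males, and fox-1 and sea-2 did not pass the test. Both X-linked genes among the 3 were thus higher in the animals with 1 X than in those with 2. This count has to be read against a background in which 67.3% of the 14628 tested genes passed in this comparison, 33.9% as higher and 33.3% as lower in XO hermaphrodites, by limma on log2(FPKM + 1) with a Benjamini-Hochberg adjusted p below 0.05 (called, from here on). sea-1 passed the filter on low values, a mean of 1 FPKM over 13 libraries, only through the XO hermaphrodite young adults, since its mean over the other 10 libraries was 0.108 FPKM; a gene that enters the test in this way had to differ. In whole worms fewer cells of a type and less RNA per cell cannot be told apart.

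sex-1 encodes a nuclear hormone receptor that represses transcription of xol-1. It had 9.51, 12.6 and 9.59 FPKM in XO hermaphrodite young adults, against 2.83, 2.26, 2.19 and 2.18 FPKM in XX male young adults. The ranges did not overlap, and the lowest XO library was above every XX library by more than the spread of either group. The mean was 10.6 ± 1.79 FPKM in XO hermaphrodites (SD, n = 3) and 2.36 ± 0.311 FPKM in XX males (SD, n = 4), a ratio of 4.48. The fitted difference on the log2(FPKM + 1) scale was 1.78 (SE 0.25, limma adjusted p = 4.15e-05).

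ceh-39 encodes a homeodomain protein of the ONECUT family, which also represses xol-1 transcription. It had 7.35, 9.42 and 6.70 FPKM in XO hermaphrodite young adults and 0.703, 1.28, 0.861 and 1.31 FPKM in XX male young adults. Again the ranges did not overlap, and ceh-39 was close to the filter level in the XX males. The mean was 7.82 ± 1.42 FPKM in XO hermaphrodites (SD, n = 3) and 1.04 ± 0.304 FPKM in XX males (SD, n = 4), a ratio of 7.53, the larger of the ratios of the 3 X signal elements. The fitted difference was 2.11 on the log2(FPKM + 1) scale (SE 0.23, limma adjusted p = 6.51e-06).

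fox-1 encodes an RNA-binding protein that acts on xol-1 after transcription, through splicing of its pre-mRNA. It had 3.64, 4.81 and 3.58 FPKM in XO hermaphrodite young adults and 4.27, 4.64, 3.93 and 6.04 FPKM in XX male young adults. The ranges overlapped, with XO replicate 2 above 3 of the 4 XX libraries. The fitted difference was -0.19 on the log2(FPKM + 1) scale (SE 0.26, limma adjusted p = 0.540); its sign turned under 2 of the 4 other scalings of the libraries, to 0.15 with a common sum and 0.43 with quantile normalization. The 3 X signal elements therefore did not move as a group in young adults: sex-1 and ceh-39 rose and fox-1 was not called.

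sea-1 encodes a T-box transcription factor that activates xol-1. It had 12.8, 15.3 and 8.87 FPKM in XO hermaphrodite young adults, and in XX male young adults it was listed at 0 in replicates 1 to 3 and at 0.0305 FPKM in replicate 4. The groups did not overlap, and the single value above 0 in XX males was 1 step of the low-value scale of its library, the smallest amount that library could show. The fitted difference was 3.69 on the log2(FPKM + 1) scale (SE 0.19, limma adjusted p = 6.59e-09), and it is set largely by the pseudocount: with 0.1 in place of 1 it was 6.82. No fold change of FPKM is given, because 3 of the XX male values are 0.

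sea-2 encodes a zinc finger protein, the other known autosomal activator of xol-1. It had 31.1, 27.5 and 28.5 FPKM in XO hermaphrodite young adults and 30.7, 34.3, 37.2 and 41.2 FPKM in XX male young adults. The ranges met at 1 library, XO replicate 1, which lay just above the lowest XX library. The mean was 29.0 FPKM in XO hermaphrodites and 35.8 FPKM in XX males, a ratio of 0.810, and the fitted difference of -0.29 (SE 0.30, limma adjusted p = 0.420) was not called. Its sign turned, to 0.11, when libraries were scaled to a common sum. The autosomal signal elements, like those of the X, did not move together.

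**Figure D2:**
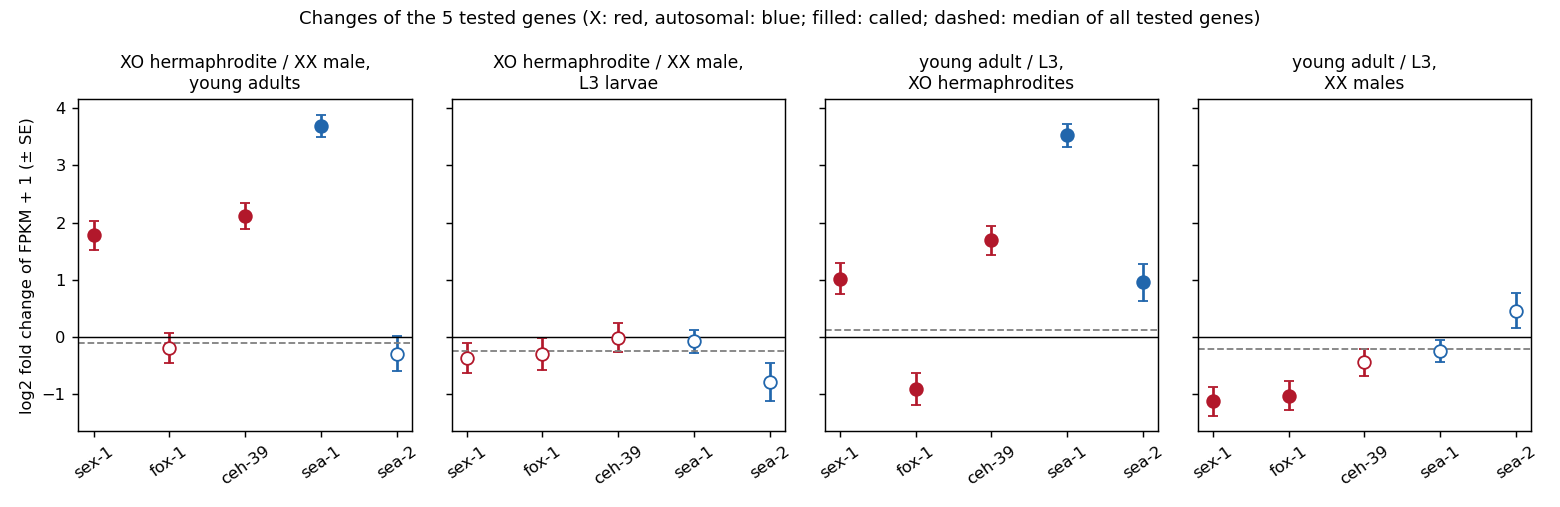
Fitted log2 fold changes of FPKM + 1 (y axis) of the 5 tested genes (x axis) in the 2 comparisons of animals and the 2 comparisons of stages; whiskers are the SE from limma, filled points are called (adjusted p below 0.05), and the dashed line is the median of all tested genes. sex-1, ceh-39 and sea-1 stood above 1.7 in young adults and within 0.4 of 0 at L3, and fox-1 lay near -1 in both comparisons of stages.

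The X genes of these adults ran mostly the other way. Of 1985 tested X genes, 917 were called lower in XO hermaphrodites and 223 higher, with a median change of -0.60, against -0.11 over all tested genes. The change of sex-1 was larger than that of 95.5% of the tested X genes and the change of ceh-39 larger than that of 96.0%, while fox-1 was above 69.8% of them. Of the 2515 tested genes of chromosome II, sea-1 stood above 98.6% and sea-2 above 44.0%. These shares are descriptions of where the genes stood, with no test. Scaling the libraries in 4 other ways moved the median of all genes between -0.37 and 0.27 in this comparison, and relative to that median sex-1 was higher by 1.8 to 1.95, ceh-39 by 2.15 to 2.40 and sea-1 by 3.35 to 3.91.

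**Figure D3:**
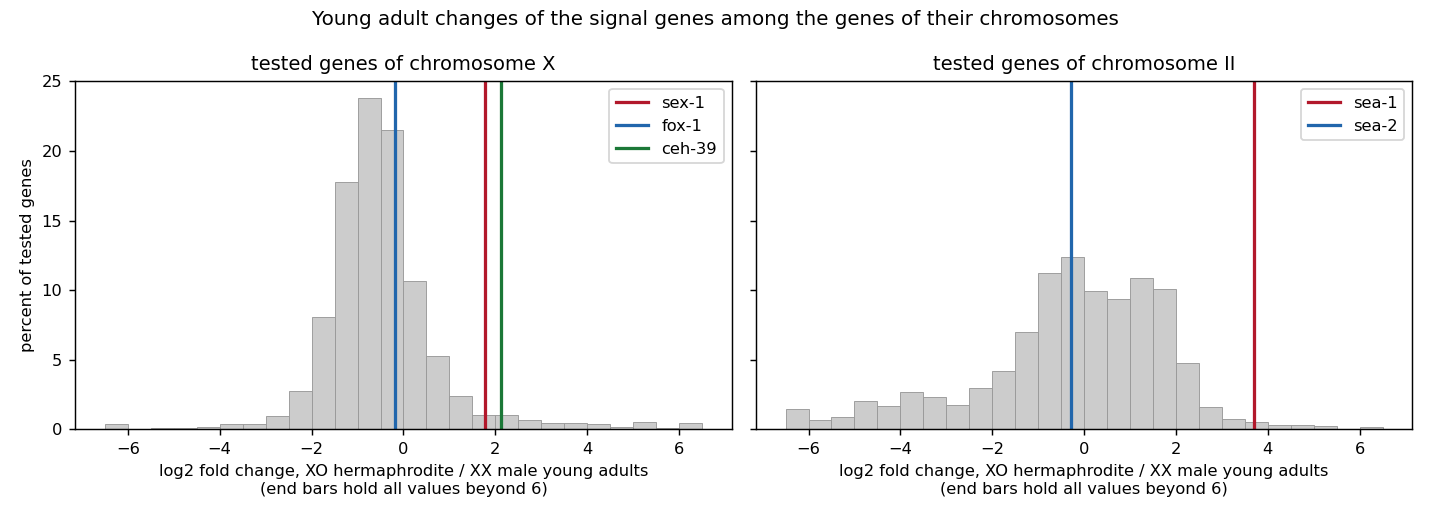
Percent of tested genes (y axis) by log2 fold change between XO hermaphrodite and XX male young adults (x axis, bins of 0.5, positive where XO is higher), for chromosome X (left) and chromosome II (right), with vertical lines at the signal genes. sex-1 at 1.78 and ceh-39 at 2.11 stood in the upper tail of the X genes, and sea-1 at 3.69 in the upper tail of chromosome II. fox-1 stood above 69.8% of the X genes, and sea-2 near the middle of chromosome II.

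Markers of germ cells and of somatic tissues moved with this comparison too. Their counts stand beside 67.3% of all tested genes called by limma, 33.9% as higher and 33.3% as lower in XO hermaphrodites. The 12 oocyte and eggshell markers in the table summed to 5062 to 6017 FPKM in XO hermaphrodite young adults and 120 to 150 FPKM in XX male young adults, and all 12 were called higher. The 12 germline and meiosis markers summed to 1493 to 1634 FPKM in XO hermaphrodites and 360 to 426 FPKM in XX males, with 10 of 12 higher. The 14 sperm markers summed to 205 to 1158 FPKM in XO hermaphrodites and 14813 to 22304 FPKM in XX males, and all 14 were lower. No marker of these 3 lists was at 0 in all libraries of a group. Early embryo genes, of which 12 of 13 listed were in the table and none passed the filter, summed to 9.89 to 20.2 FPKM in XO hermaphrodites and 0.493 to 0.912 FPKM in XX males. Somatic lists were lower in XO hermaphrodites: 6 of 7 neuron markers, 5 of 5 tested male neuron markers, 4 of 7 body muscle markers and 4 of 6 intestine markers were called lower and none higher, with medians of -1.05, -2.80, -1.36 and -0.78. The 7 male neuron markers summed to 2.30 to 2.70 FPKM in XO hermaphrodites and 167 to 238 FPKM in XX males. A marker that passed the filter only through the young adults in which it was high had to be called that way. This holds for any oocyte, germline, sperm or male neuron marker, so the counts of these lists are descriptions. The part of germ cells and somatic tissues in the levels of sex-1, ceh-39 and sea-1 was not tested.

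At L3 the signal genes showed no called difference between XO hermaphrodites and XX males. The count was 0 of 5 tested, where 5.58% of all tested genes were called by limma, 1.26% as higher and 4.31% as lower in XO hermaphrodites. Across all tested genes, 4046 had an unadjusted p below 0.05 by limma, and of the signal genes only sea-2 was among these. sex-1 had 6.15, 4.92 and 3.30 FPKM in XO hermaphrodite L3 larvae and 4.06, 6.95 and 8.73 FPKM in XX male L3 larvae. The ranges overlapped, with the highest value in XX male replicate 3 and the lowest in XO hermaphrodite replicate 3. ceh-39 had 2.81, 1.06 and 1.55 FPKM in XO hermaphrodites and 1.41, 2.29 and 1.61 FPKM in XX males, with a mean of 1.81 ± 0.902 FPKM in XO hermaphrodites and 1.77 ± 0.462 FPKM in XX males (SD, n = 3 each). fox-1 had 12.4, 6.88 and 6.83 FPKM in XO hermaphrodites and 9.32, 15.2 and 8.12 FPKM in XX males.

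The limma differences at L3 were -0.37 for sex-1 (adjusted p = 0.370), -0.30 for fox-1 (adjusted p = 0.494) and -0.01 for ceh-39 (adjusted p = 0.987). These lie near the median of all tested genes, -0.25, which other scalings moved between -0.44 and 0.01, and the sign of the ceh-39 difference turned under 3 of 4 scalings. sea-1 was close to nothing in both kinds of larvae: it was listed at 0, 0.336 and 0.0959 FPKM in XO hermaphrodites and at 0.392, 0.139 and 0.0834 FPKM in XX males. The 5 larval values above 0, like that of XX male young adult replicate 4, were 1 to 3 whole steps of their libraries, within 0.532% of a step, whereas the XO hermaphrodite young adults had over 100 steps each. No difference of sea-1 between the larvae could be read at this depth.

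sea-2 showed the widest gap at L3. It had 21.7, 11.1 and 12.4 FPKM in XO hermaphrodite larvae and 29.2, 40.1 and 14.2 FPKM in XX male larvae, so that XX male replicate 3 lay among the XO libraries. The difference was -0.79 (SE 0.33, limma adjusted p = 0.145, unadjusted p = 0.0321) and was not called. Leaving out XO hermaphrodite replicate 1, the library that stood apart, gave -1.06 with an adjusted p of 0.0293, and leaving out XX male replicate 3 gave -1.19 with an adjusted p of 0.0374, so the call on sea-2 at L3 rested on single libraries. Without XO hermaphrodite replicate 1 the others stayed uncalled by limma, at -0.54 for sex-1, -0.55 for fox-1, -0.26 for ceh-39 and 0.02 for sea-1 (adjusted p = 0.164, 0.129, 0.402 and 0.978). The number of all genes called at L3 was 816 with that library and 4448 without it. Germline and meiosis markers summed to 124 to 180 FPKM in XO hermaphrodite larvae and 282 to 362 FPKM in XX male larvae, with 9 of 12 lower and none higher, and oocyte and eggshell markers to 33.4 to 45.7 FPKM in XO hermaphrodites and 59.2 to 78.5 FPKM in XX males, with 4 of 12 lower and none higher. Of all tested genes 1.26% were called higher and 4.31% lower at L3. A fit of only the L3 groups called 2 of all tested genes lower and the replicate block 1, so most of these marker calls were lost there. The part of germ cells in the L3 differences and in their change with stage was not tested.

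The difference between animals changed with stage for sex-1, ceh-39 and sea-1. The interaction, the XO minus XX difference in young adults less that at L3, was 2.15 for sex-1 (SE 0.36, limma adjusted p = 3.3e-04), 2.13 for ceh-39 (SE 0.34, limma adjusted p = 2.29e-04) and 3.77 for sea-1 (SE 0.28, limma adjusted p = 4.39e-07). That was 3 of 5 tested, all higher, where 56.5% of all tested genes were called, 32.6% as higher and 23.9% as lower. The call of sea-1 is fixed by its entry into the test through the XO hermaphrodite young adults alone, so its p is a description. For fox-1 it was 0.11 (limma adjusted p = 0.823) and for sea-2 0.50 (limma adjusted p = 0.367), neither called. Without XO hermaphrodite L3 replicate 1 the 3 called values were 2.31, 2.37 and 3.68.

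From L3 to young adult the XO hermaphrodites changed in all 5 tested genes: sex-1, ceh-39, sea-1 and sea-2 rose and fox-1 fell. For sea-1 the call was fixed by its entry into the test through these young adults alone. The comparison shares its adult libraries with that of the animals. In it 62.2% of all tested genes were called by limma, 33.7% as higher and 28.5% as lower in young adults. sex-1 averaged 10.6 ± 1.79 FPKM in young adults and 4.79 ± 1.43 FPKM at L3 (SD, n = 3 each), a ratio of 2.21, and changed by 1.02 (SE 0.27, limma adjusted p = 0.00498). ceh-39 averaged 7.82 ± 1.42 FPKM in young adults and 1.81 ± 0.902 FPKM at L3, a ratio of 4.33, and changed by 1.69 (SE 0.25, limma adjusted p = 8.4e-05). These X-linked genes rose in animals in which the median tested X gene changed by -0.75, with 1022 X genes lower and 198 higher, and the median of all tested genes was 0.13.

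fox-1 went with the majority of the X genes. Its mean was 4.01 ± 0.691 FPKM in XO hermaphrodite young adults and 8.69 ± 3.19 FPKM in XO hermaphrodite L3 larvae (SD, n = 3 each), a ratio of 0.461, and it fell by 0.91 (SE 0.28, limma adjusted p = 0.012). sea-1 changed by 3.52 on the log2(FPKM + 1) scale (limma adjusted p = 2.9e-08). This p is a description, as the filter fixed the call. Among these larvae 1 library was listed at 0 and the others at 2 steps. sea-2 averaged 29.0 FPKM in young adults and 15.1 FPKM in larvae, a ratio of 1.93, and changed by 0.96 (SE 0.33, limma adjusted p = 0.0215). For none of the 5 tested genes did the XO young adult and XO L3 ranges overlap. The share of all tested genes without overlap was not counted, so this is a description, where 62.2% of all tested genes were called by limma.

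Some of these stage calls depended on the scaling of the libraries, which moved the median of all genes between -0.41 and 0.59 here. sex-1 was at 0.35 (limma adjusted p = 0.221) with upper quartile scaling, fox-1 at -0.36 (limma adjusted p = 0.329) with a common sum, and sea-2 was not called under 3 of 4 scalings or without XO hermaphrodite young adult replicate 1 or XO hermaphrodite L3 replicate 2 or 3 (limma adjusted p = 0.061, 0.0812 and 0.0695). Relative to the median of all genes under each scaling, sex-1 stood at 0.76 to 1.01, fox-1 at -1.15 to -0.83 and sea-2 at 0.29 to 1.0. Without XO hermaphrodite L3 replicate 1 all 5 were called, sex-1 at 1.19, fox-1 at -0.66, ceh-39 at 1.93, sea-1 at 3.43 and sea-2 at 1.24. Oocyte and eggshell markers summed to 5062 to 6017 FPKM in XO hermaphrodite young adults and 33.4 to 45.7 FPKM in XO hermaphrodite larvae, and germline and meiosis markers to 1493 to 1634 FPKM in young adults and 124 to 180 FPKM in larvae. Their part in the rise of sex-1, ceh-39, sea-1 and sea-2 was not tested.

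In XX males sex-1 and fox-1 were lower in young adults than at L3, and the other 3 tested genes were not called. Of all tested genes 50.2% were called by limma in this comparison, 21.7% as higher and 28.5% as lower in young adults. sex-1 averaged 2.36 ± 0.311 FPKM in young adults (SD, n = 4) and 6.58 ± 2.35 FPKM at L3 (SD, n = 3), a ratio of 0.359, and fell by 1.13 (SE 0.25, limma adjusted p = 0.00227). sex-1 thus went down with stage in XX males and up in XO hermaphrodites, and the test of that difference is the interaction above. fox-1 averaged 4.72 ± 0.926 FPKM in young adults and 10.9 ± 3.82 FPKM at L3, a ratio of 0.433, and fell by 1.02 (SE 0.26, limma adjusted p = 0.00554).

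ceh-39 in XX males had its 4 young adult libraries, up to 1.31 FPKM, just under its 3 L3 libraries, from 1.41 FPKM, a ratio of means of 0.588. The fitted change of -0.44 was not called (limma adjusted p = 0.139). sea-2 averaged 35.8 FPKM in XX male young adults and 27.8 FPKM in XX male larvae, with overlapping ranges and a change of 0.46 (limma adjusted p = 0.228). sea-1 was at 0 to 1 step in the young adults and 1 to 3 steps in the larvae, where no change can be read. Sperm markers summed to 14813 to 22304 FPKM in XX male young adults and 4.46 to 872 FPKM in XX male larvae; their part in the lower sex-1 and fox-1 levels was not tested.

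Ordered by level, the genes fell into different patterns. sex-1 was highest in XO hermaphrodite young adults, whose lowest library (9.51 FPKM) lay above the highest of XX male L3 larvae (8.73 FPKM). The XX male and XO hermaphrodite larvae came next and did not differ beyond their spread, and XX male young adults were lowest, with no library reaching the 3.30 FPKM of the lowest XO larval library. For fox-1 the 6 larval libraries, from 6.83 FPKM up, all lay above the 7 adult libraries, up to 6.04 FPKM, and within each stage the animals overlapped. For ceh-39 the XO hermaphrodite young adults were alone at the top and the other groups lay between 0.703 and 2.81 FPKM. For sea-2 the XX male larvae, from 14.2 to 40.1 FPKM, spanned the XO hermaphrodite young adults and overlapped both other groups.

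Ranked among all 20376 genes, sea-2 stood above the others. In XO hermaphrodite young adults the mean FPKM of sea-2 was above 76.2% of genes, that of sea-1 above 66.0%, sex-1 above 64.4%, ceh-39 above 61.2% and fox-1 above 53.6%. In XX male young adults sea-2 was above 83.3% of genes, fox-1 above 48.8%, sex-1 above 39.9%, ceh-39 above 31.9% and sea-1 above 7.23%. sea-2 thus had the highest FPKM of the 6 in each of the 4 groups, and the rank of the others depended on the animals.

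Summing the X and the autosomal signal elements gave a view of the 2 sides of the counting system in each library. The sum of sex-1, fox-1 and ceh-39 was 20.5, 26.9 and 19.9 FPKM in XO hermaphrodite young adults and 7.80, 8.18, 6.98 and 9.53 FPKM in XX male young adults. The sum of sea-1 and sea-2 was 43.9, 42.7 and 37.4 FPKM in XO hermaphrodite young adults and 30.7, 34.3, 37.2 and 41.2 FPKM in XX male young adults. The X side was therefore separated between the adults and the autosomal side was not. The ratio of the X sum to the autosomal sum was 0.467 to 0.629 in XO hermaphrodite and 0.188 to 0.254 in XX male young adults, and 0.935 to 1.12 in XO hermaphrodite and 0.50 to 1.29 in XX male larvae. The animals with 1 X had the higher ratio as adults and overlapped those with 2 X as larvae. These sums are descriptions, with no test. sea-2 made up most of the autosomal sum in each group, and fox-1 most of the X sum in larvae except in XX male L3 replicate 3. There sex-1, at 8.73 FPKM, was above fox-1, at 8.12 FPKM.

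**Figure D4:**
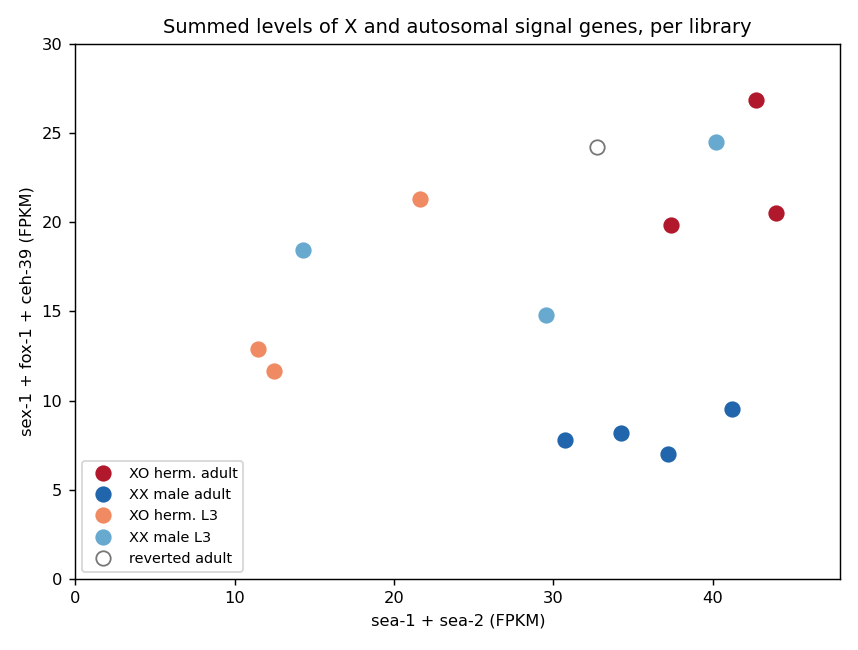
Sum of the X signal elements sex-1, fox-1 and ceh-39 (y axis, FPKM) against the sum of the autosomal signal elements sea-1 and sea-2 (x axis, FPKM), 1 point per library, with the reverted library as an open point. The 4 XX male young adult libraries lay between 6.98 and 9.53 FPKM on the y axis, under the 3 XO hermaphrodite young adult libraries, from 19.9 to 26.9 FPKM, at similar places on the x axis.

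The close relatives of ceh-39 differed among themselves. ceh-41, ceh-21, T26C11.9 and ceh-39 follow each other in this order on the same strand of the X in the current annotation, and ceh-21 and ceh-41 encode ONECUT homeodomain proteins like ceh-39. ceh-21 had 7.18, 6.81 and 4.95 FPKM in XO hermaphrodite young adults and 1.49, 1.70, 1.39 and 2.2 FPKM in XX male young adults, without overlap. Its difference was 1.44 (limma adjusted p = 7.79e-05), and at L3 it averaged 3.16 ± 1.21 FPKM in XO hermaphrodites and 2.76 ± 0.341 FPKM in XX males (SD, n = 3 each), which was not called. ceh-21 thus had its highest level in the same group as ceh-39. ceh-41 had 2.65, 3.46 and 3.64 FPKM in XO hermaphrodite young adults and 1.71, 1.98, 1.95 and 1.87 FPKM in XX male young adults, a difference of 0.56 (limma adjusted p = 0.0459) that was lost when any 1 of 6 of the 7 adult libraries was left out. Unlike ceh-39 it was highest in larvae, at 6.50 ± 2.38 FPKM in XO hermaphrodites and 4.41 ± 1.17 FPKM in XX males, and it fell from L3 to young adult by 0.78 in XO hermaphrodites (limma adjusted p = 0.0141) and by 0.89 in XX males (limma adjusted p = 0.00593).

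**Figure D5:**
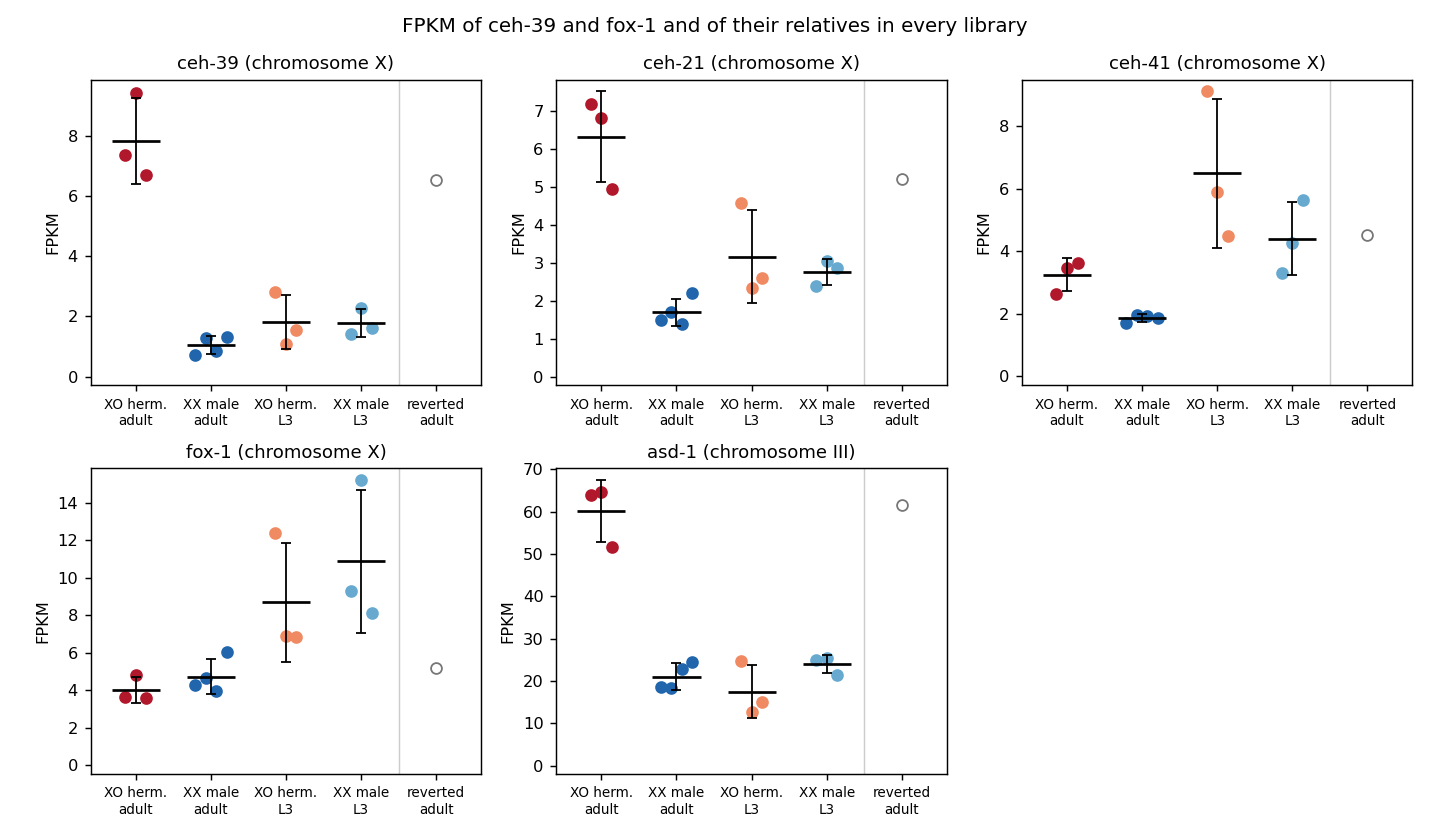
FPKM (y axis, linear, a scale of its own in each panel) of ceh-39 and its X-linked relatives ceh-21 and ceh-41, and of fox-1 and its autosomal relative asd-1, in each library; bars are group means and whiskers SD. ceh-39, ceh-21 and asd-1 were highest in XO hermaphrodite young adults, and ceh-41 and fox-1 were highest in larvae.

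Of all 5 listed ONECUT relatives, 4 exceeded and 1 was under the XX male level in XO hermaphrodite young adults, with a median of 1.44, where 67.3% of all tested genes were called and the median was -0.11. The largest were the autosomal genes ceh-49 (3.60, limma adjusted p = 3.77e-09), at 12.8 ± 1.32 FPKM in XO hermaphrodites and 0.130 ± 0.0436 FPKM in XX males, and ceh-38 (1.82, limma adjusted p = 1.41e-04). As ceh-49 passed the filter only through the XO hermaphrodite young adults, its call was fixed and its p is a description. ceh-48 was the lower one (-2.67, limma adjusted p = 1.27e-04). None of the 5 was called at L3 by limma, where 5.58% of all tested genes were. asd-1, the autosomal relative of fox-1 and also a splicing regulator, had 64, 64.7 and 51.6 FPKM in XO hermaphrodite young adults and 18.6, 18.2, 22.8 and 24.5 FPKM in XX male young adults, a difference of 1.47 (limma adjusted p = 5.58e-05) where fox-1 was not called. asd-1 overlaps the coding gene pelo-1 in the current annotation, so its FPKM may hold reads of both.

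Of 21 T-box genes in the table besides sea-1, 7 passed the filter on low values. In young adults 4 of these rose and 3 fell in XO hermaphrodites relative to XX males, where 33.9% of all tested genes rose and 33.3% fell. tbx-9 had the largest rise, at 4.0 (limma adjusted p = 2.85e-07), with tbx-36 at 3.47 (limma adjusted p = 1.77e-09), and tbx-34 the largest fall, at -5.27 (limma adjusted p = 1.02e-05). tbx-9 averaged 23.9 ± 3.58 FPKM in XO hermaphrodites (SD, n = 3) and 0.547 ± 0.140 FPKM in XX males (SD, n = 4), and tbx-36 averaged 11.5 ± 1.36 FPKM in XO hermaphrodites and 0.126 ± 0.0701 FPKM in XX males. Like sea-1, both passed the filter only through the XO hermaphrodite young adults, as did ceh-49 above. None of the 7 was called at L3 by limma, where 5.58% of all tested genes were.

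Downstream of xol-1 the gene lists moved with animal and stage in the following way. In young adults 8 of 10 dosage compensation genes rose and 1 fell in XO hermaphrodites relative to XX males, with a median of 1.0, where 33.9% of all tested genes rose and 33.3% fell. capg-1 and dpy-28, which encode condensin subunits of the complex, changed by 1.5 and 1.41 (limma adjusted p = 9.52e-05 and 2.33e-05), and sdc-3, mutated in TY2205, by -1.01 (limma adjusted p = 7.54e-05). At L3 none of the 10 was higher and 4 were lower, with a median of -0.67, where 1.26% of all tested genes were higher and 4.31% lower, among them sdc-3 at -2.06 (limma adjusted p = 1.09e-04) and dpy-28 at -0.92 (limma adjusted p = 0.0225), the last lost without XO hermaphrodite L3 replicate 2 or 3 or XX male L3 replicate 1. Of the 7 sex determination genes below xol-1, 6 were higher and 1 lower in young adults, with a median of 0.98, led by her-1 at 4.02 (limma adjusted p = 4.43e-06) and fem-3 at 3.27 (limma adjusted p = 4.69e-08). tra-1, the terminal transcription factor of the pathway, was the lower one, at -0.93 (limma adjusted p = 0.0475), a call lost when any 1 of 6 of the 7 adult libraries was left out. At L3 her-1 was higher, at 3.04 (limma adjusted p = 0.00425), and fem-3 lower, at -1.25 (limma adjusted p = 0.00888). The L3 calls of her-1, fem-3, sdc-3 and dpy-28 were all lost in a fit of only the L3 groups and with the replicate block.

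The genes nearest to each signal gene in pattern were sought among tested genes averaging 5 FPKM or more, 10937 or 10938 in all, by the root mean square difference of mean-centred log2(FPKM + 1) over the 13 libraries. For sex-1 these were pop-1 (0.189), which encodes the TCF transcription factor of Wnt signalling, Y38A10A.7 (0.190) and trm-1 (0.190). pop-1 averaged 45.4 ± 3.49 FPKM in XO hermaphrodite and 11.3 ± 0.310 FPKM in XX male young adults, and 20.5 ± 4.0 FPKM in XO hermaphrodite and 28.8 ± 5.35 FPKM in XX male larvae (SD), the same order of groups as sex-1 at a higher level. For ceh-39 they were ikke-1 (0.188), dcap-1 (0.199), an mRNA decapping enzyme subunit, and C01G5.5 (0.211). For fox-1 they were mkk-4 (0.143) and sdn-1 (0.183), both on the X, and M04D5.3 (0.201). For sea-1 they were W02B8.2 (0.199), C16C8.12 (0.288) and F52B5.2 (0.309), and for sea-2 they were F11G11.5 (0.216), egl-4 (0.251), a cGMP-dependent protein kinase, and kin-19 (0.252). W02B8.2 averaged 58.8 ± 7.24 FPKM in XO hermaphrodite and 3.64 ± 0.289 FPKM in XX male young adults, and unlike sea-1 it was clearly present in larvae, at 4.10 ± 0.512 FPKM in XO hermaphrodites and 5.53 ± 1.18 FPKM in XX males (SD).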

How the data were processed

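Per the labels' protocols, strand-specific libraries were made from poly(A) RNA of whole worms. FPKM values of each gene in each library were deposited by the authors as a single table. The submitters' processing notes name Cufflinks 2.2.0; for the aligner, annotation and genome build the answer is not given in the sources used here, and no coordinates are printed. Titles and source names number the XO hermaphrodite young adults differently, and replicates follow the titles. Of 20417 rows, 6 repeats, 22 genes empty in every library and 13 with values only in XX male young adults were left out; it is not known if those columns were made with other settings. Tests used log2(FPKM + 1), which understates changes of low genes, for the 14628 genes averaging 1 FPKM or more over 13 libraries. The model was fitted by limma 3.58.1 under R 4.3.3 (4 group means, eBayes with trend, Benjamini-Hochberg adjustment, threshold 0.05), tested on simulated data. The reverted library stayed out of all fits. Tables and figures used pandas 2.3.3, numpy 2.4.6 and matplotlib 3.10.9 under Python 3.11.15. Sums and ratios are of FPKM.

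The members, lists and tests were chosen with earlier results of these data known. The text names the 6 genes in every comparison, ceh-21, ceh-41 and asd-1, up to 2 called genes per list, direction and comparison with the largest change, the strain check genes, and the 3 genes nearest in pattern to each member. Genes named outside this rule in counts were chosen after their values were seen. Alternatives were another pseudocount, other filters and scalings, array weights, no trend, smaller fits, a replicate block and leaving out each library. Current gene order and overlaps come from the WBcel235 annotation.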

Additional observations from a re-analysis of the deposited data

Results flagged for a closer look

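sex-1 in XX male young adult replicate 1 was 2.83 FPKM, farther above the other 3 libraries, at 2.18 to 2.26 FPKM, than Dixon's test allows for 4 samples (gap over range 0.878); it was still under every XO hermaphrodite library. Chance flags about 1 in 20 groups in this way. sea-1 in XX male young adult replicate 4 was 0.0305 FPKM, where the other 3 libraries were at 0, which is 1 step of that library. With the others at 0, any value above 0 would have been singled out, whatever its size.

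The XO minus XX difference changed between young adults and L3 larvae by 2.15 for sex-1, 2.13 for ceh-39 and 3.77 for sea-1 on the log2(FPKM + 1) scale (limma adjusted p = 3.3e-04, 2.29e-04 and 4.39e-07), where 56.5% of all tested genes were called. For sea-1 the filter fixed the call, so its p is a description.

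In the reverted XO hermaphrodite young adult library xol-1 was 0.672 FPKM, against 0 FPKM in all 3 XO hermaphrodite young adult libraries.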

How the results depend on the processing

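The calls of sex-1 and ceh-39 in young adults and in the interaction held in each alternative in which they were tested, at 1.43 to 2.16 for sex-1 and 1.78 to 2.82 for ceh-39 in young adults. sea-1 ranged from 3.33 to 6.82 there, but its call is fixed by the filter and no sign of stability. A filter at a mean of 5 FPKM dropped ceh-39 and sea-1, leaving 1 called member in young adults, 3 from L3 to young adult in XO hermaphrodites and 1 in the interaction. Upper quartile scaling also left 3 in XO hermaphrodites over stages (leaving out 1 library, 4 to 5). At L3 array weights called 1 member, sea-2, and leaving out 1 library called 0 to 1. All genes called at L3 numbered 816, but 1920 with a common sum, 5123 with array weights, 3 in a fit of only the L3 groups, 1 with the replicate block, and 245 to 4448 without 1 library. Scaling moved the split of calls: in young adults a common sum gave 5823 genes higher and 3631 lower in XO, against 4964 and 4875 as deposited, and at L3 620 were higher and 422 lower with upper quartile scaling, against 185 and 631.

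Of the member results, 414 kept direction and side, 10 gained a call, 9 lost one and 22 turned sign, none of these called on either side. Turned in young adults: fox-1 at 0.15 (common sum) and 0.43 (quantile), sea-2 at 0.11 (common sum). At L3: fox-1 at 0.041 (quantile), ceh-39 at 0.18 (upper quartile), 0.10 (median ratio) and 0.35 (quantile) and from -0.26 to 0.18 without 1 library, sea-1 at 0.19 (quantile) and from -0.19 to 0.032 without 1 library. In the interaction: fox-1 at -0.47 (upper quartile) and -0.36 (median ratio) and from -0.14 to 0.36 without 1 library, sea-2 at -0.17 (upper quartile), -0.038 (median ratio) and -0.19 (quantile). Calls gained were sea-2 at L3 and in the interaction (0.88 with array weights, 0.90 without XX male L3 replicate 3), and in XX males over stages ceh-39 (-0.76 with quantile normalization), sea-1 (-1.38 with a pseudocount of 0.1) and sea-2 (0.79 with median ratio scaling, 0.77 without XX male L3 replicate 2). The causes were not tested.

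The numbers were not taken as pairs in the main fit. Same-numbered libraries of the 2 animals correlated at -0.0616 to -0.0167 at L3. In young adults they correlated at 0.0467 to 0.298, and each XO hermaphrodite library correlated best with its own number. Pairing by number is thus not settled for young adults. A block on these numbers left sex-1 and ceh-39 called there, at 1.75 and 2.18 (limma adjusted p = 6.3e-04 and 2.19e-04). With the replicate block fox-1 from L3 to young adult in XO hermaphrodites had a limma adjusted p of 0.0777 and ceh-39 in XX males one of 0.0482.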

Other observations

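The reverted adult TY2205 library, which entered no comparison, had 12.5 FPKM of sex-1, 5.2 FPKM of fox-1, 6.53 FPKM of ceh-39, 12.7 FPKM of sea-1 and 20.0 FPKM of sea-2. Its sum of X signal elements was 0.740 of its sum of autosomal signal elements. Its her-1 level was 74.7 FPKM, its oocyte and eggshell markers summed to 5572 FPKM and its early embryo genes to 28.6 FPKM.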
